A study of Caenorhabditis elegans with 12 samples.

Results

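The genes described here encode the DnaJ (HSP40) proteins, the subunits of the cytosolic chaperonin CCT and the subunits of prefoldin in the nematode Caenorhabditis elegans. Members were taken by symbol, as every dnj, cct or pfd gene with a numbered name that had a probe set assigned to that gene alone. This gave 43 genes of 17118 genes with such a probe set, namely 29 dnj, 8 cct and 6 pfd genes, covered by 66 probe sets. Each gene was represented by its brightest probe set. Genes were tested where 3 or more of the 12 arrays read above their own median, which 38 members did, namely 25 dnj, 7 cct and 6 pfd genes. The genes dnj-4, dnj-24, dnj-26, dnj-28 and cct-3 were too dim.

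The arrays came from 2 transgenic strains. The HLH strain carried pHS::hlh-8 and pHS::hlh-2 together with egl-15::gfp and pRF4, and the marker strain carried egl-15::gfp and pRF4, so the reporter and the transformation marker were shared by all groups. The genes behind the heat shock promoter (pHS) encode a Twist transcription factor (hlh-8) and the E protein with which it pairs (hlh-2). Array titles give a code and a set number, which made 4 groups of 3 arrays: HLH code 2, HLH code 1, marker code 4 and marker code 3. According to the design text, each genotype had heat-shocked and unshocked worms, in biological triplicate. No label says which code was heat shocked or gives an age, stage or sex, so groups are named by code throughout. Nor does a label say which code of one strain matches which of the other.

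DnaJ proteins bind HSP70 chaperones through a conserved J domain, stimulate their ATP hydrolysis and deliver unfolded clients to them. Members of the family work in the cytosol, the endoplasmic reticulum (ER), the mitochondrion, on ribosomes and on vesicle coats. CCT is a double-ring complex of related subunits in which newly made actin and tubulin fold. Prefoldin is a jellyfish-shaped hexamer that holds unfolded actin and tubulin and hands them to CCT.

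Values are MAS5 signals on a linear scale, and all 12 arrays had been scaled to a trimmed mean of 500.1, with array medians between 180.3 and 208. Differences are differences of mean log2 signal with the standard error (SE) of the limma fit, and calls are those with an adjusted p under 0.05. Signals of different genes are not set against each other, since each probe set has its own response. The RNA came from lysates with no tissue named, in which fewer cells of a type and less RNA per cell cannot be told apart. The 4 arrays of set 2 stood apart from the rest: 24.3% of all 9416 tested genes were higher and 17.5% lower in set 2 than in sets 1 and 3. The array titled 2_2 (2) has an uncertain set and was left out wherever sets entered a fit, which left 11 arrays.

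The DnaJ gene dnj-13 was the only member called between the codes, and its direction was opposite to that of the HSP70 genes. It encodes a cytosolic class B DnaJ protein, the counterpart of human DNAJB1, which works with HSP70 and HSP110 in taking protein aggregates apart. Its signal was 1422.4, 1429.7 and 1489.1 on the HLH code 2 arrays, against 2746.9, 2832.2 and 2278.6 on the HLH code 1 arrays. In the marker strain it was 1368.1, 1022.8 and 1261.5 at code 4, against 2125.9, 1880.2 and 2044.4 at code 3. All 3 arrays of the lower code lay below all 3 of the other code in both strains, with no overlap. The means were 1447 ± 36.6 at HLH code 2 and 2619 ± 298 at HLH code 1 (SD, n = 3 each). They were 1217 ± 177 at marker code 4 and 2017 ± 125 at marker code 3 (SD, n = 3 each).

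Within a single strain the difference of dnj-13 did not pass the adjustment over all probe sets. It was -0.85 ± 0.15 on the log2 scale (SE) in the HLH strain, 1.80 times lower, with a limma adjusted p of 0.21. In the marker strain it was -0.74 ± 0.15 (SE), 1.67 times lower, with a limma adjusted p of 0.35. Over both strains dnj-13 fell by 0.79 on the log2 scale in codes 2 and 4 relative to codes 1 and 3, with an SE of 0.11 and an adjusted p of 0.0091. With the set as a block it fell by 0.81 with an adjusted p of 0.0022, and without the 4 arrays of set 2 it was at -0.72 with an adjusted p of 0.086. Codes 2 and 4 were set together with earlier results of these data known, not from a label. The difference held within each set, lying between -0.99 and -0.95 in the 2 sets with both HLH codes and between -0.88 and -0.64 in the 3 sets of the marker strain. The code difference in the HLH strain minus that in the marker strain was -0.11 ± 0.22 (SE), with a limma adjusted p of 1.

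**Figure D1:**
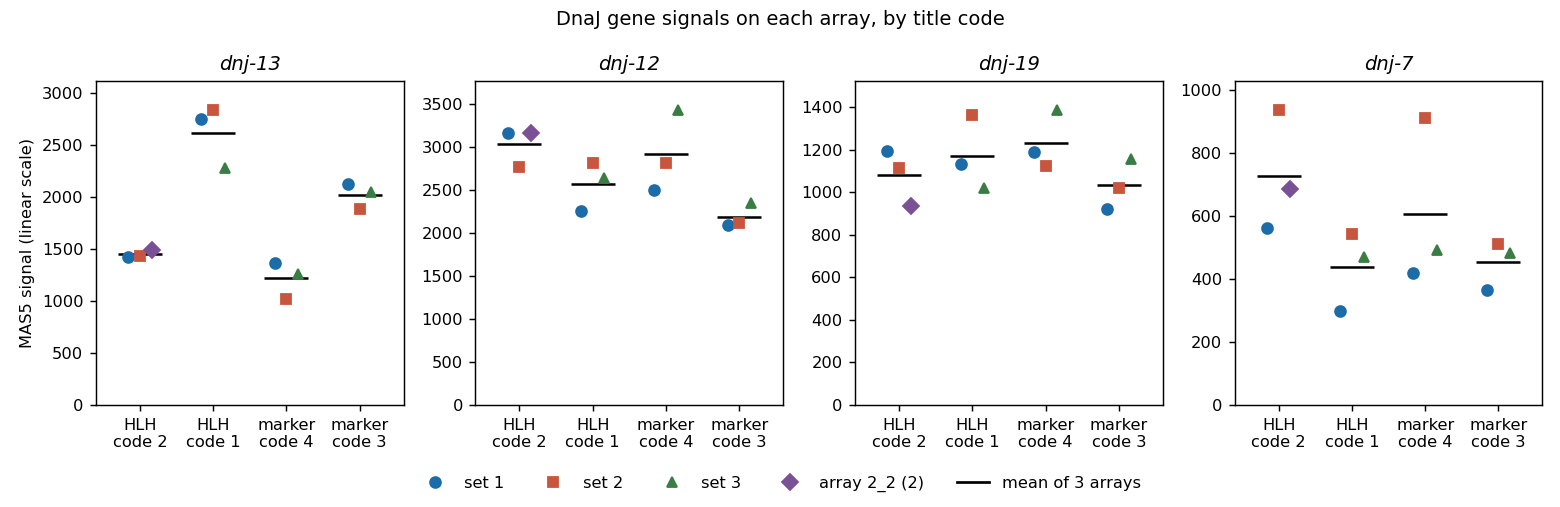
MAS5 signal (linear scale) of dnj-13, dnj-12, dnj-19 and dnj-7 on each of the 12 arrays, with the 4 title codes along the x axis. Symbols mark the set, horizontal lines the mean of 3 arrays; dnj-13 lies between 1022.8 and 1489.1 at codes 2 and 4 and between 1880.2 and 2832.2 at codes 1 and 3.

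A second dnj-13 probe set, dimmer than the first, gave the same direction without a call. It read 464.3, 480.2 and 434.3 at HLH code 2, against 863.5, 923.6 and 832 at HLH code 1. It read 324, 358.4 and 580.4 at marker code 4, against 652.4, 496.3 and 714.8 at marker code 3, where the arrays overlapped. Its difference over both strains was -0.76 ± 0.15 (SE) with a limma adjusted p of 0.15, and 0.051 with the set as a block.

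Calls between the codes were rare in the whole table, so dnj-13 stands in short lists. At codes 2 and 4 against codes 1 and 3, the share of tested genes called lower was 0.0106%, which was dnj-13 alone, and 0.0743% were called higher, none of them a member. With the set as a block 0.159% of tested genes were called lower, dnj-13 being the only member among them, and 0.244% higher, again with no member. The arrays of both codes stood apart in the same direction in both strains for 0.361% of genes on the low side and 0.414% on the high side. Of the members dnj-13 did so on the low side and none on the high side. The share of all tested genes whose codes stood apart in a single strain was not counted, so such members below have no background beside them. In the single strains 0.0319% of tested genes were called between HLH code 2 and HLH code 1 and 0.0319% between marker code 4 and marker code 3, with 0 members in each. At an unadjusted limma p under 0.05 there were 2 members in the HLH strain, beside 284 of 12328 probe sets, and 2 in the marker strain, beside 268. By log2 difference dnj-13 ranked as number 5 from the bottom of the 9416 tested genes.

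The HSP70 and HSP110 genes, whose products DnaJ proteins serve, lay on the other side. All 7 tested genes of that list were above 0 at codes 2 and 4 against codes 1 and 3, with a median of 0.27, and 2 were called. The inducible chaperone gene hsp-70 had 361.4, 238.3 and 408.1 at HLH code 2, against 103.7, 111 and 93.6 at HLH code 1. It had 574.9, 273.9 and 549.9 at marker code 4, against 102.4, 58.8 and 88.9 at marker code 3. Over both strains hsp-70 rose by 2.06 ± 0.23 on the log2 scale (SE, adjusted p = 0.0016), and hsp-4, an ER HSP70, by 1.47 ± 0.19 (SE, adjusted p = 0.0061). The nucleotide exchange factor gene hsp-110 was at 0.61 ± 0.20 (SE) with an adjusted p of 0.8, and was called with the set as a block at 0.64, adjusted p = 0.03. Of 13 tested genes for HSP90 and its co-chaperones, 11 were above 0 and 0 were called. Those with the smallest p were unc-45, with a log2 difference of 0.36, and cdc-37, with a log2 difference of 0.42 (limma adjusted p = 0.8 for both). The median of all tested genes in this comparison was 3.43e-05.

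The other cytosolic DnaJ partners of HSP70 gave no call. The class A gene dnj-12 had 3157.2, 2769.3 and 3163 at HLH code 2, against 2255.1, 2810.1 and 2639 at HLH code 1, which overlapped. It had 2497.6, 2811.7 and 3421.8 at marker code 4, against 2096.6, 2114.3 and 2346.2 at marker code 3, which did not overlap. Its difference over both strains was 0.32 ± 0.11 (SE), with an unadjusted limma p of 0.012 and an adjusted p of 1. The class A gene dnj-19 was at -0.11 in the HLH strain and 0.25 in the marker strain, and its arrays overlapped in both.

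In the ER group dnj-7 had the largest positive code difference of all 38 members over both strains, and in the HLH strain, whereas in the marker strain cct-7 and dnj-12 lay above it. It encodes the counterpart of mammalian DNAJC3 (P58IPK), a DnaJ protein of the ER lumen and a target of the unfolded protein response. It had 560.9, 935.5 and 687 at HLH code 2, against 299.5, 544.5 and 470.7 at HLH code 1. It had 420.2, 910.4 and 491.9 at marker code 4, against 364.7, 511.5 and 482.6 at marker code 3. The HLH codes did not overlap, whereas the marker codes did. Within each of the 5 pairs of arrays that shared a strain and a set, dnj-7 was higher at codes 2 and 4, and so was cct-7. The share of all tested genes that were so was not counted. Over both strains dnj-7 was at 0.55 ± 0.22 (SE) with an adjusted p of 1, and at 0.56 with an adjusted p of 0.076 with the set as a block. The other ER genes dnj-1, dnj-20, dnj-27 and dnj-29, which encode counterparts of DNAJB12/14, DNAJB11, ERdj5 and SEC63, lay between -0.063 and 0.086 over both strains.

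The remaining DnaJ genes also gave no call between codes. The lowest after dnj-13 over both strains, and in the HLH strain, was dnj-11, whereas dnj-22 and dnj-21 lay below it in the marker strain. The gene dnj-11 encodes the counterpart of the ribosome-bound yeast zuotin. It read 470.1, 391.4 and 530.2 at HLH code 2, against 575.5, 558.3 and 765 at HLH code 1, with no overlap. It read 335.8, 310.4 and 412.5 at marker code 4, against 466.4, 251 and 617.7 at marker code 3, with overlap. Its difference over both strains was -0.35 ± 0.20 (SE). Within sets dnj-11 was lower in both HLH pairs and in 2 of 3 marker pairs, and higher by 0.31 in the other. The mitochondrial genes dnj-10, a Tid1 counterpart, and dnj-21, of the TIM14 import motor, were at -0.013 and -0.21. In every pair of arrays that shared a strain and a set, dnj-21 was lower at codes 2 and 4, as was dnj-13. The share of all tested genes that were so was not counted, and dnj-21 was not called. Those differences of dnj-21 were -0.48 and -0.17 in the HLH strain and lay between -0.50 and -0.12 in the marker strain. The synaptic vesicle gene dnj-14 (cysteine string protein) and the auxilin gene dnj-25 were at 0.043 and 0.046. The 12 tested dnj genes with no role given here, dnj-2, dnj-3, dnj-5, dnj-8, dnj-9, dnj-15, dnj-16, dnj-17, dnj-18, dnj-22, dnj-23 and dnj-30, had a median of 0.037 and lay between -0.093 and 0.26.

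Neither complex of the actin and tubulin folding path gave a call between codes. All 7 tested cct genes were above 0 at codes 2 and 4 against codes 1 and 3, with a median of 0.16 and a range from 0.020 for cct-8 to 0.31 for cct-7. In the HLH strain 5 of 7 were above 0 and in the marker strain 7 of 7. Each SE was 0.14 or more. The 6 pfd genes had a median of -0.037, from -0.18 for pfd-3 to 0.23 for pfd-4. The prefoldin gene pfd-4 read 1571.1, 1585.9 and 1551.1 at HLH code 2 against 1593.1, 1366.3 and 1058.7 at HLH code 1, which overlapped. It read 1323.8, 1277.3 and 1332.4 at marker code 4 against 1057.4, 1123.1 and 1237.7 at marker code 3, which did not. The alpha-type subunit gene pfd-3 was lower without overlap in the HLH strain alone, with 539.3, 435.7 and 550.6 at HLH code 2 against 663.5, 580.9 and 682.2 at HLH code 1 (-0.34 ± 0.17, SE). The beta-type gene pfd-6 was lower without overlap in the marker strain alone, with 695.7, 678.1 and 637.7 at marker code 4 against 752.4, 842.8 and 804.6 at marker code 3 (-0.25 ± 0.19, SE).

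No code difference of a member was shown to depend on the strain. The test of the code difference in the HLH strain minus that in the marker strain called 0 members and 0% of all tested genes, and 0 members had an unadjusted limma p under 0.05, against 87 of 12328 probe sets. With the set as a block the counts were again 0 calls, with 436 probe sets at an unadjusted p under 0.05. The differences of the members in both strains, which share no array, had a Pearson correlation of 0.61 across the 38 genes. Without dnj-13 it was 0.42, and across all 9416 tested genes 0.39; genes are not independent replicates.

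**Figure D2:**
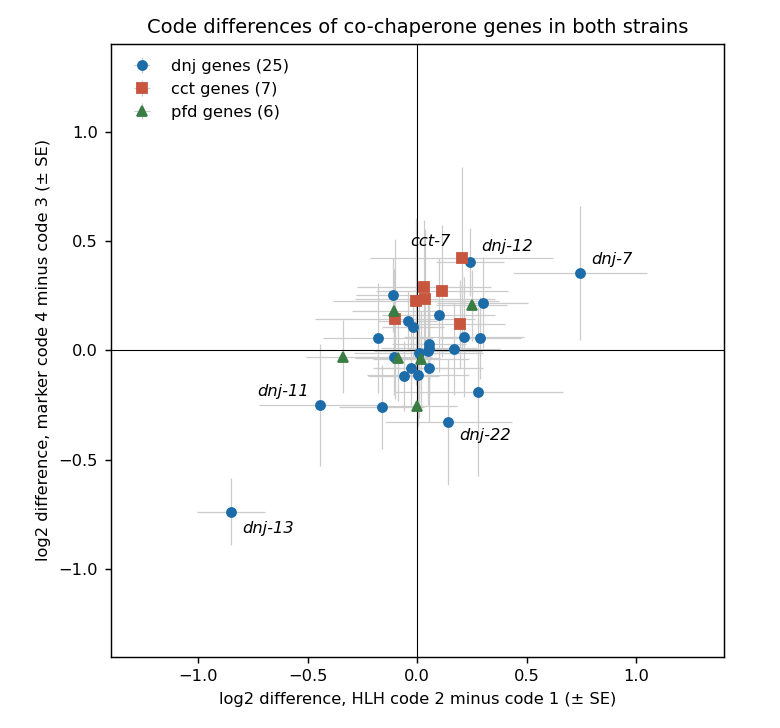
Log2 difference of each tested member between HLH code 2 and HLH code 1 (x axis) and between marker code 4 and marker code 3 (y axis), with SE bars; circles are 25 dnj genes, squares 7 cct genes and triangles 6 pfd genes. The gene dnj-13 lies alone at -0.85 and -0.74, while dnj-7 lies at 0.74 and 0.35.

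Between strains most members lay slightly higher in the HLH strain. Of 38 tested members 36 were above 0 with a median of 0.18, beside 5436 of 9416 tested genes above 0 with a median of 0.042. Without the set in the fit 0 members were called, and 2.82% of all tested genes were called in either direction. At an unadjusted limma p under 0.05 there were 5 members, beside 1983 of 12328 probe sets. With the set as a block dnj-11, cct-2, cct-4 and cct-6 were called higher, 4 of 38 members or 10.5%, against 6.86% of all tested genes. No member was called lower, against 7.55% of all tested genes. The share of members called lies near that background.

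The ribosome-associated gene dnj-11 had its lowest, median and highest signals at 391.4, 544.25 and 765 in the HLH strain, against 251, 374.15 and 617.7 in the marker strain. The ranges overlapped, but dnj-11 was higher in the HLH strain in 5 of 5 pairs of arrays that shared a set and stood at code 2 with code 4 or code 1 with code 3. So were dnj-5, dnj-13, dnj-14, dnj-25, dnj-27, cct-2, cct-4, cct-6 and cct-7, and the share of all tested genes that were so was not counted. The difference of dnj-11 was 0.49 ± 0.20 (SE, limma adjusted p = 0.23), and 0.53 ± 0.13 with the set as a block (SE, adjusted p = 0.02). That pairing of codes is one of 2 possible ones, since the labels match no codes across strains.

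The chaperonin genes cct-2, cct-4 and cct-6 encode the beta, delta and zeta subunits. The gene cct-4 had its lowest, median and highest signals at 2917.2, 5028.2 and 5199.6 in the HLH strain, against 1758.3, 4298.65 and 4982.4 in the marker strain. The difference was 0.29 ± 0.27 (SE, limma adjusted p = 0.67), and 0.32 ± 0.10 with the set as a block (SE, adjusted p = 0.042). The gene cct-2 had 1846.1, 2742.3 and 2943.8 at the lowest, median and highest in the HLH strain, against 1136.6, 2383.25 and 2686.1 in the marker strain. The gene cct-6 had 1884, 2708.85 and 3054.9 in the HLH strain, against 1109.7, 2048.75 and 2751.1 in the marker strain. The ranges of all 3 genes overlapped between strains, and their lowest arrays belonged to set 2. With the block cct-2 was at 0.32 (limma adjusted p = 0.048) and cct-6 at 0.39 (adjusted p = 0.033). Without the block these strain differences moved with single arrays. Without marker code 3 of set 2 they were 0.12 for cct-2, 0.069 for cct-4, 0.18 for cct-6 and 0.31 for dnj-11. With 1 array left out the highest values were 0.41, 0.42, 0.51 and 0.63 for the same genes. Further probe sets of cct-2 and cct-4 were called with the block too, whereas that of cct-6 was not, and cct-7 was called on its second probe set (adjusted p = 0.011) but not on its brightest (adjusted p = 0.065). The gene cct-8 was at -0.0080 ± 0.26 (SE), with 311.7, 333.5 and 516.9 at the lowest, median and highest in the HLH strain, against 197.5, 456.1 and 535.7 in the marker strain.

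Among the other members dnj-27, the ERdj5 counterpart, was at 0.45 ± 0.18 (SE) and dnj-22 at 0.38 ± 0.20 (SE), with limma adjusted p-values of 0.23 and 0.39. Signals of dnj-27 ran from 217.7 through a median of 276 to 385.2 in the HLH strain, against 146.2, 214.3 and 239.7 in the marker strain. Signals of dnj-22 ran from 236.7 through 363.1 to 399 in the HLH strain, against 146.5, 272.5 and 337.8 in the marker strain. Both genes overlapped between strains, and dnj-22 was at 0.22 without marker code 4 of set 3. The gene dnj-19 was at -0.0064 ± 0.12 (SE), with 934.5, 1122.6 and 1360.5 in the HLH strain, against 920.6, 1138.75 and 1383.5 in the marker strain.

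Tissue markers also moved between the strains. All 7 intestine markers and all 7 body wall muscle markers were below 0 in the HLH strain, and 4 and 5 of them were called lower with the set as a block. Of all 9416 tested genes 3980 were below 0. With the block 7.55% of them were called lower and 6.86% higher. Summed muscle marker signal ranged from 37835.2 to 46008.5 in the HLH strain, against 43845.6 to 56999.8 in the marker strain. Summed intestine signal ranged from 29770.3 to 41694.3 in the HLH strain, against 33765.9 to 52705.8 in the marker strain. Every intestine and muscle marker was above the array median on at least 1 array of each group. The hypodermis markers lay the other way, with 3 of 3 tested above 0 and a median of 0.31. Of these rol-6, a cuticle collagen gene, was called at 1.05 (limma adjusted p = 0.00078) and lin-26 with the set as a block (adjusted p = 0.044). Summed hypodermis signal ranged from 14971.2 to 20927.1 in the HLH strain, against 9301.8 to 11547.5 in the marker strain, with no overlap. Most of that sum was rol-6, which read 10305.9 to 15926.7 in the HLH strain, against 5561.9 to 7499.9 in the marker strain. Both strains carried the transformation marker pRF4, and its part in the rol-6 signal was not tested. Neither rol-6 nor that sum is therefore read as a measure of hypodermis. The other tested hypodermis markers, dpy-7 and lin-26, overlapped between strains, and 2 of the 5 measured markers were below the array median on every array. The part of these markers in the chaperonin and dnj-11 differences was not tested.

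The dim gene dnj-26, which did not pass the filter, was lower in the HLH strain on every array. Its signal was 39.9 at the lowest, 52.8 at the median and 61.6 at the highest in the HLH strain, against 90.3, 105.45 and 129.1 in the marker strain, with no overlap of 6 arrays against 6. In a fit without the filter on dim probe sets its difference was -1.04 ± 0.15 (SE), with a limma adjusted p of 0.015 and 0.035 with the set as a block, where 252 of 22548 probe sets were called. This gene was singled out after its values were seen, and all its signals lay below the array medians, so its size is not set beside those of tested members. The other dim genes dnj-4, dnj-24, dnj-28 and cct-3 were not called between strains in that fit.

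The chaperonin was the member group with the largest median difference in any comparison made here, and that was in set 2. All 7 tested cct genes were lower in set 2 than in sets 1 and 3, and all 7 were called. With 1 array left out 6 or 7 remained called, cct-5 being the one lost. The median difference was -0.78 on the log2 scale, beside 0.042 for all tested genes, and single genes lay between -1.03 for cct-7 and -0.32 for cct-5. The dim cct-3 was at -1.81 ± 0.31 (SE, limma adjusted p = 0.013) in the fit without the filter, where 4799 of 22548 probe sets were called. The 7 further probe sets of 6 cct genes were all lower as well, from -1.02 to -0.23, and 6 of them were called.

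The gene cct-7, which encodes the eta subunit, read 1757.4, 1579.8, 1129.8 and 804.3 on the set 2 arrays of HLH code 2, HLH code 1, marker code 4 and marker code 3. In sets 1 and 3 it had its lowest, median and highest signals at 2087.5, 2416.6 and 3231 over 7 arrays. All set 2 arrays were below all others, with means of 1318 ± 432 in set 2 (SD, n = 4) and 2489 ± 390 in sets 1 and 3 (SD, n = 7). The share of all tested genes whose set 2 arrays stood apart from sets 1 and 3 was not counted. Members described so here and below thus have no background beside them. The difference was -1.03 ± 0.13 (SE, limma adjusted p = 0.00013), or 2.04 times lower.

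The gene cct-4 read 2917.2, 3090.4, 2452.2 and 1758.3 on the set 2 arrays in the same order, against 4195.1, 4982.4 and 5199.6 at the lowest, median and highest in sets 1 and 3. Again no array overlapped, and the difference was -0.97 ± 0.10 (SE, limma adjusted p = 2.5e-05). The gene cct-8, of the theta subunit, read 311.7, 327.4, 238.9 and 197.5 in set 2, against 330.9, 464.1 and 535.7 in sets 1 and 3, at -0.84 ± 0.15 (SE, adjusted p = 0.00088). The genes cct-2, cct-1 and cct-6 were at -0.78, -0.74 and -0.69 with limma adjusted p-values of 0.00014, 0.0002 and 0.00049. The epsilon subunit gene cct-5 was at -0.32 (limma adjusted p = 0.023), and its second probe set at -0.23 (adjusted p = 0.08) was not called.

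**Figure D3:**
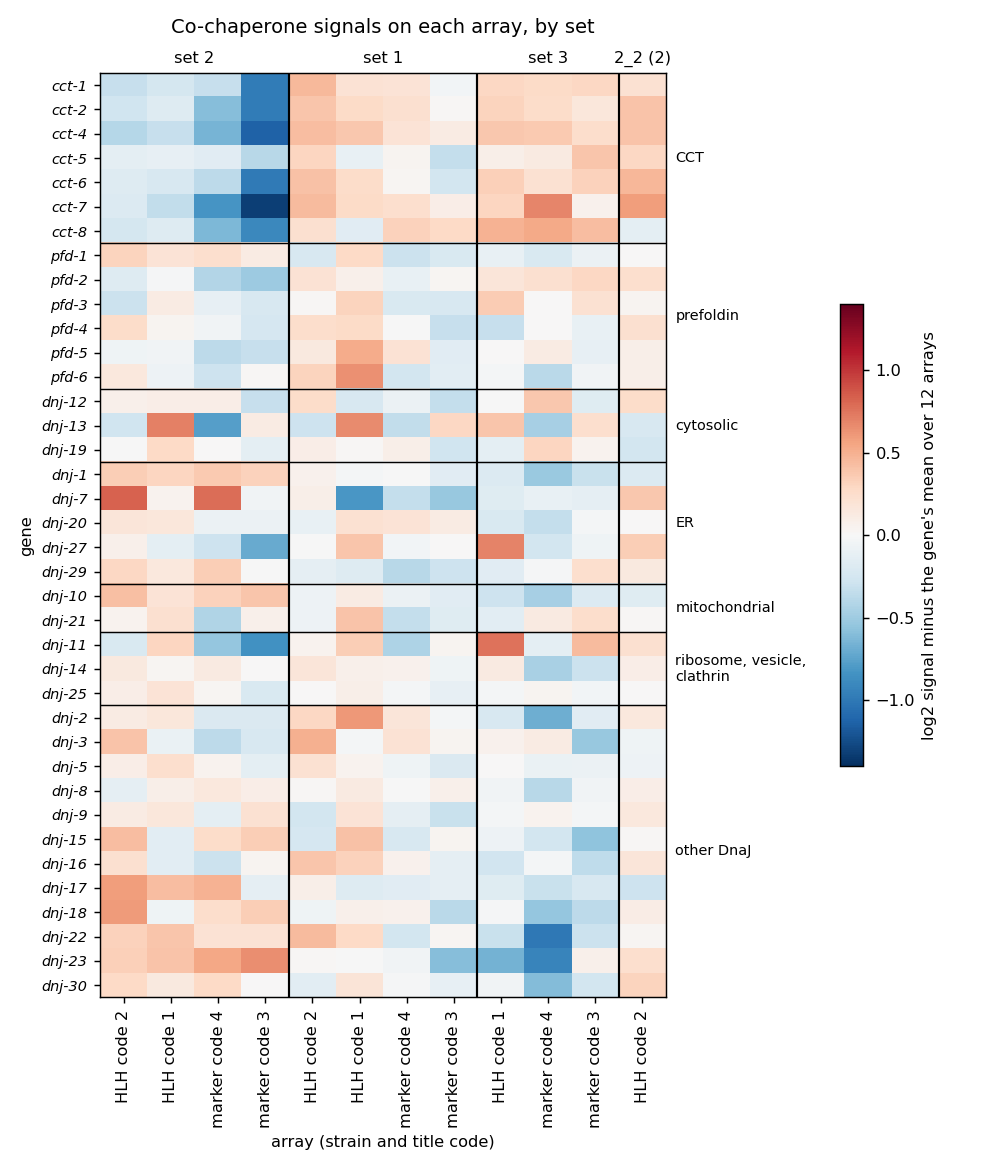
Log2 signal of the 38 tested members (rows) on the 12 arrays (columns), minus each gene's mean over 12 arrays, with arrays ordered by set and blue for low. The 7 cct rows are blue on all 4 set 2 arrays, with group means from -0.23 at HLH code 1 to -0.96 at marker code 3.

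On each set 2 array all 7 cct genes lay below their own mean over the 12 arrays. The mean deviation of the 7 genes was -0.25 at HLH code 2, -0.23 at HLH code 1, -0.51 at marker code 4 and -0.96 at marker code 3. On the 7 arrays of sets 1 and 3 it lay between -0.02 and 0.38, and on the array titled 2_2 (2) it was 0.32. Fitted in the HLH strain alone the 7 genes had a median of -0.57 with 5 called, where 5.32% of all tested genes were called lower. In the marker strain alone they had a median of -0.95 with 6 called, where 16.6% of all tested genes were called lower. The difference between the strains in the size of this set effect was not tested.

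**Figure D4:**
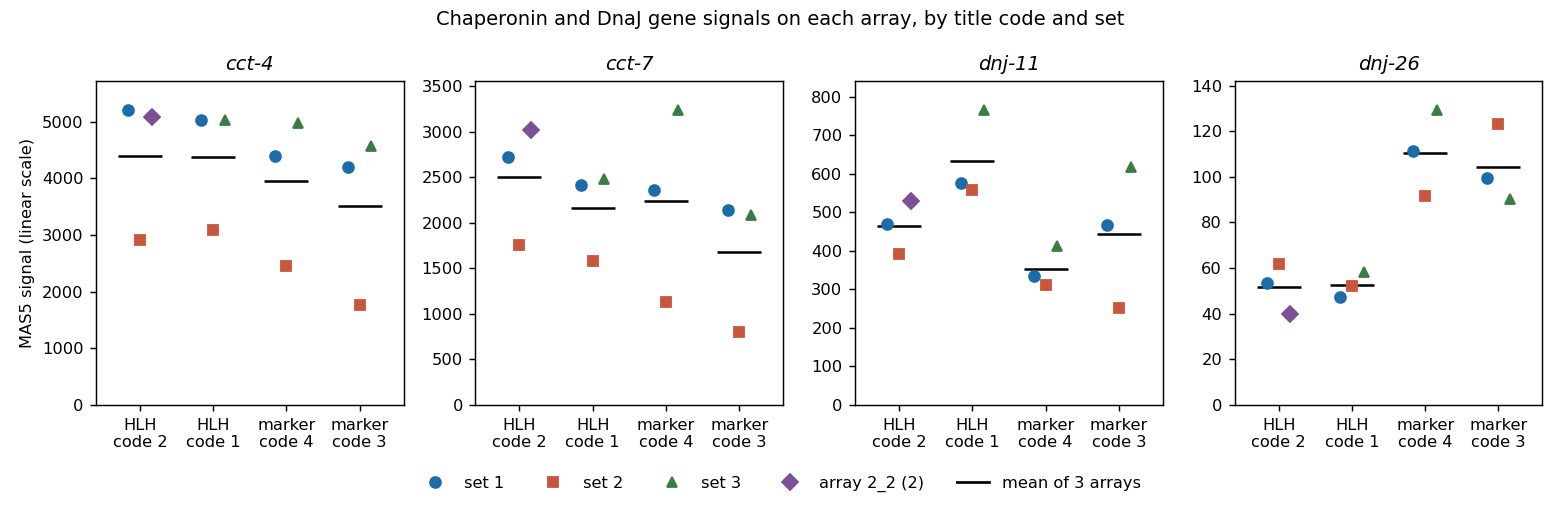
MAS5 signal (linear scale) of cct-4, cct-7, dnj-11 and dnj-26 on each array, with the 4 title codes along the x axis, symbols for sets and lines for the mean of 3 arrays. The set 2 squares of cct-4 and cct-7 lie below every other array, whereas dnj-26 is lower in the HLH strain, between 39.9 and 61.6, than in the marker strain, between 90.3 and 129.1.

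Prefoldin split in set 2. The alpha-type subunit gene pfd-5 and the beta-type gene pfd-2 were lower, at -0.30 ± 0.10 (SE, limma adjusted p = 0.032) and -0.44 ± 0.10 (SE, adjusted p = 0.0042). The beta-type gene pfd-1 was higher, at 0.34 ± 0.11 (SE, limma adjusted p = 0.027), and pfd-3, pfd-4 and pfd-6 were not called. Signals of pfd-2 were 1778.9, 1985.8, 1514.5 and 1419.3 in set 2, against 1871.2, 2258.3 and 2471.7 at the lowest, median and highest in sets 1 and 3. Signals of pfd-1 were 1930, 1773, 1824.6 and 1687.7 in set 2, against 1267.3, 1344.7 and 1889. Both genes overlapped between the sets.

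Of 25 tested dnj genes 7 were called higher in set 2, against 24.3% of all tested genes, and 1 lower, against 17.5%, with a median difference of 0.12. The share called higher lies near the background. The cytosolic HSP70 partners dnj-12, dnj-13 and dnj-19 gave no call in set 2, lying between -0.074 and 0.0055. In the ER group dnj-7 at 0.59 ± 0.12 (SE, limma adjusted p = 0.0024) and dnj-1 at 0.51 ± 0.09 (SE, adjusted p = 0.0011) were higher. The gene dnj-1 read 2166.6, 2090.7, 2201.5 and 2136 in set 2, against 1184.3, 1527.5 and 1779.7 at the lowest, median and highest in sets 1 and 3, with no overlap. Its second probe set was at 0.57 (limma adjusted p = 0.0012).

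The ER gene dnj-29 was at 0.29 and dnj-20 at 0.089, neither called, and a dim second probe set of dnj-20 was called lower at -0.46 (limma adjusted p = 0.016), so its probe sets disagreed. The ERdj5 gene dnj-27 was at -0.39 (limma adjusted p = 0.058). The mitochondrial gene dnj-10 was higher at 0.51 ± 0.10 (SE, adjusted p = 0.0021), and dnj-21 was at -0.039.

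Of the genes with no role given here, dnj-23 was highest in set 2 at 0.81 ± 0.19 (SE, limma adjusted p = 0.0049). It read 378, 397.2, 436.2 and 471.6 in set 2, against 158, 289.9 and 316.1 at the lowest, median and highest in sets 1 and 3, with no overlap. Its second probe set was at 0.61 (limma adjusted p = 0.0057). The genes dnj-17, dnj-22 and dnj-30 were also called, at 0.48, 0.46 and 0.34. The ribosome-associated dnj-11 was the only dnj gene called lower, at -0.52 ± 0.14 (SE, limma adjusted p = 0.0091).

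**Figure D5:**
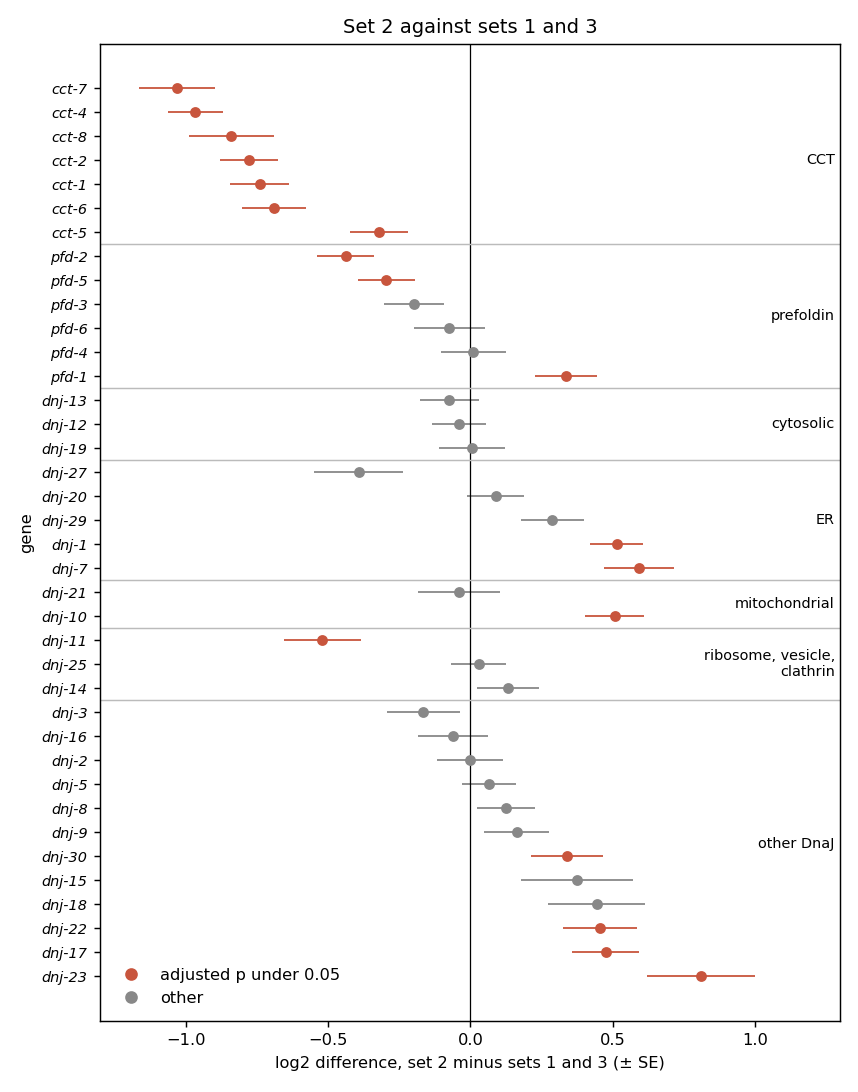
Log2 difference between set 2 and sets 1 and 3 for the 38 tested members, grouped by role, with SE bars; coloured points have a limma adjusted p under 0.05. All 7 cct genes lie left of 0 and are coloured, and 7 of the 8 coloured dnj genes lie right of 0.

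In all, 8 of 38 members were called higher in set 2 (21.1%, against 24.3% of all tested genes) and 10 lower (26.3%, against 17.5%). Those shares lie near the background of a set that moved many genes, and the direction divided by complex: the 10 lower members were 7 cct, 2 pfd and 1 dnj genes. Clients and partners of the chaperonin lay low in set 2 as well. Of 15 tested tubulin and actin genes 11 were called lower and 1 higher, among them tbb-2, a beta tubulin, at -0.73 ± 0.07 (SE, limma adjusted p = 2e-05). The constitutive HSP70 gene hsp-1 was at -0.85 ± 0.13 (SE, limma adjusted p = 0.00031), and 6 of 7 HSP70 and HSP110 genes were called lower and 1 higher. Of 13 HSP90 and co-chaperone genes 6 were called lower and 2 higher. By contrast 5 tubulin folding cofactor genes gave 1 call each way, and 4 genes of chaperonin helpers and the mitochondrial chaperonin gave none.

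Markers of several tissues moved in set 2 too, where 17.5% of all tested genes were called lower and 24.3% higher. Of the intestine markers 5 of 7 were called lower, with summed signals of 29770.3 to 34854.1 in set 2, against 37380.6 to 52705.8 in sets 1 and 3. Of the body wall muscle markers 4 of 7 were called lower, with sums of 37835.2 to 47758.8 in set 2, against 42362.3 to 56999.8. Summed neuron markers were 10207 to 10939.7 in set 2, against 11563.8 to 13815.8, with 2 of 6 called lower and 1 higher. Germline markers had 4 of 9 called lower and 2 higher, with sums of 4649.3 to 5872.4 in set 2, against 4708.9 to 5466.5. Their part in the chaperonin difference was not tested.

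Between set 3 and set 1 0 members were called, against 1.35% of all tested genes. At an unadjusted limma p under 0.05 there were 8 members, beside 2297 of 12328 probe sets, which are near shares. The lowest were dnj-22 at -0.60 ± 0.16 (SE, limma adjusted p = 0.083) and dnj-2 at -0.58 ± 0.14 (SE, adjusted p = 0.067). The gene dnj-2 read 1042.1, 760.2 and 1092.6 in set 3 at HLH code 1, marker code 4 and marker code 3, against 1854.8, 1369.8 and 1198.4 in set 1 at the same codes, with no overlap; HLH code 2 of set 1 had 1485.2. The gene dnj-22 read 236.7, 146.5 and 238.8 in set 3 at those codes, against 358.2, 246.1 and 298.9 in set 1, where HLH code 2 had 399. Its sets did not overlap either. The gene dnj-23 was at -0.34 ± 0.24 (SE), its sets overlapped, and with 1 array left out it lay between -0.69 and -0.084, the last without marker code 4 of set 3. The highest were dnj-7 at 0.42, dnj-11 at 0.38 and cct-8 at 0.37, which were as low as 0.32, 0.23 and 0.18 with 1 array left out. Of these cct-8 did not overlap, with 516.9, 535.7 and 498.6 in set 3 against 330.9, 464.1 and 448.1 in set 1, where HLH code 2 had 432.1. All 7 tested cct genes were above 0, with a median of 0.20. Of the 12 dnj genes with no role given here, 11 were below 0, with a median of -0.26. Across all 9416 tested genes 4262 were above 0 and 5154 below, with a median of -0.029. The share of all tested genes whose sets 3 and 1 did not overlap was not counted. In the gene order of assembly WBcel235, 2 protein-coding genes separate dnj-1 from dnj-2 and 2 separate dnj-2 from pfd-4, and these 3 neighbours were at 0.51, -0.0020 and 0.011 in set 2.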

How the data were processed

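Per the labels' protocols, biotinylated cRNA was made from the total RNA of 12 samples. The deposited table has a column of linear signal intensity for each array, made with MAS5 per the submitters' processing notes, which name no version here, and the authors' scaling was kept. Probe sets were named from the platform annotation, with 20766 of 22625 assigned to 1 gene, 887 to several and 972 to none; symbols were updated through assembly WBcel235.

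Signals under the 10th percentile, 16.7, were raised to it before log2. The 77 control probe sets were dropped and 12328 were tested with limma 3.58.1 in R 4.3.3 (lmFit, eBayes with trend, 8 residual and 4.87 prior degrees of freedom). Tests were two-sided, with Benjamini-Hochberg adjustment over all tested probe sets. A blocked fit took the set number as a term. Deviations of all 15 same-set array pairs correlated, between 0.31 and 0.79. The 30 pairs from different sets lay between -0.69 and 0.53, with 8 above 0.1. The highest of these joined set 1 and set 3 and lay above every pair within set 1. The correlations therefore do not tell set 1 from set 3. Negative values between sets carry little weight, since deviations from a group mean cancel out. The block thus rests on the set numbers in the titles. The fits were tested on simulated data. Alternatives changed the floor, the filter, the normalization, the intensity trend, the probe sets, the block and the arrays used. Named members were those called between codes or strains, those apart in both strains, and the 3 with the largest difference each way between strains or sets. Members, role groups and gene lists were chosen with earlier results of these data known. The number of arrays limits the precision.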

Additional observations from a re-analysis of the deposited data

How the results depend on the processing

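The call of dnj-13 over both strains remained when any 1 array was left out (adjusted p between 0.014 and 0.044, differences from -0.84 to -0.73), and was lost without the 4 arrays of set 2, which left 8 arrays and 0 members called (-0.72, adjusted p = 0.086). The replicate block gave 54 called probe sets in that comparison against 13 without it, 19 against 7 for marker code 4 against marker code 3, and 1731 against 335 between strains, where members called were 4 against 0. With the replicate block and the array titled 2_2 (2) placed in set 3, 1 member was called between the HLH codes (dnj-13, adjusted p = 0.022), 2 over both strains (dnj-7 and dnj-13) and 8 between strains (dnj-2, dnj-11, dnj-13, dnj-27, cct-2, cct-4, cct-6 and pfd-6). Without the filter on dim probe sets 1 member, dnj-26, was called between strains. The block changed no other call of a member. Strain differences near 0 changed sign: cct-8 was at 0.13 with the replicate block and at 0.027 where the repeated code 2 array entered as a mean with its namesake, and dnj-19 at 0.057 and 0.013; with 1 array left out they lay from -0.22 to 0.12 and from -0.063 to 0.044. Without the 4 arrays of set 2 they were at -0.29 and -0.11, with the sign kept. The cause was not tested. In set 2, 18 members were called, 12 to 19 with 1 array left out, 16 in the marker strain alone and 7 in the HLH strain alone, which has 5 arrays; the last 2 fits were chosen after the data were seen. In the HLH strain alone dnj-7, dnj-1 and cct-8 had adjusted p-values of 0.072, 0.084 and 0.095, and dnj-23 had 0.057 without the filter. Quantile normalization kept all 7 cct genes lower in set 2, with 6 called. With 3 arrays a group, dim genes and small differences are the least certain values.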
